A study of Bos taurus and Cervus elaphus with 24 samples.

Results

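Respiratory complex I is the first enzyme of the mitochondrial electron transport chain, and the 37 genes described here carry the names of its subunits made in the cytosol, among them NDUFA4, which is now assigned to complex IV. They are the genes whose name on the array is NDUFA, NDUFB, NDUFC, NDUFS or NDUFV followed by a number. The rule takes in 79 of the 43653 probes on the array and 37 of its 25232 gene names. Each gene is represented by its brightest probe, the one with the highest mean Cy5 intensity over all arrays, and 27 of the 37 genes have more than 1 probe. All 37 chosen probes were well above background on all 24 arrays, so no member was lost to a filter on dim signals, and none was saturated.

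Complex I takes electrons from NADH, passes them to ubiquinone and uses the energy to pump protons across the inner mitochondrial membrane. Its peripheral arm holds an N module that oxidises NADH and a Q module that reduces ubiquinone, and its membrane arm pumps protons. The core subunits that carry out catalysis are shared with bacteria, 7 of them coded in the nucleus and the others in mitochondrial DNA. The supernumerary subunits around them serve assembly and stability. In blood, lymphocytes and monocytes rely on oxidative phosphorylation more than neutrophils, which live mainly by glycolysis.

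The animals were 4 deer and 4 cows each of the Holstein-Friesian (HF) and Polish Red (PR) breeds, the former kept for a high milk yield and the latter a local breed. Blood was drawn from each animal when dry and again at the peak of lactation, giving 6 groups of 4 arrays, and the labels call the source peripheral blood nuclear cells. On each 2-colour array the animal's RNA carried Cy5 and a common reference pooled from 20 other cattle carried Cy3, so each value below is a log2 ratio of animal over cattle reference. No treatment, transgene or age is given in the labels, and deer RNA was read by probes made for cattle, so a lower transcript level in deer and a poorer match of deer RNA to a cattle probe cannot be told apart.

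The array of PR animal 1 in the dry period stood apart from the other 23. Its median Cy5 intensity was 2038, against 108.5 to 254.9 elsewhere. The reference channel was bright too, with a median Cy3 intensity of 761.1 against 76.97 to 116.8. Cy5 was well above background at 43785 of its spots, against 30959 to 39249 elsewhere. Outlier flags were carried by 703 of its spots, where no other array had more than 75. The complex I genes were low on it: their median log2 ratio was -1.04, with a range of -1.73 for NDUFV2 to 0.67 for NDUFA3, while the median of all probes there was 0.08. On the other 23 arrays the median of the members lay between -0.22 and 0.32. Among the 16 cattle arrays, 32 of the 37 members had their lowest value on this array, the exceptions being NDUFA3, NDUFA5, NDUFB1, NDUFB4 and NDUFC1. Most counts and medians that use this array are therefore given with and without it. So are the values of single genes that it moved by over 1.5 times. Deer values of single probes are given with all arrays. The same holds for comparisons between probes of a gene, deer values of probes grouped by motif and counts of deer differences above 1 log2 unit.

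**Figure D1:**
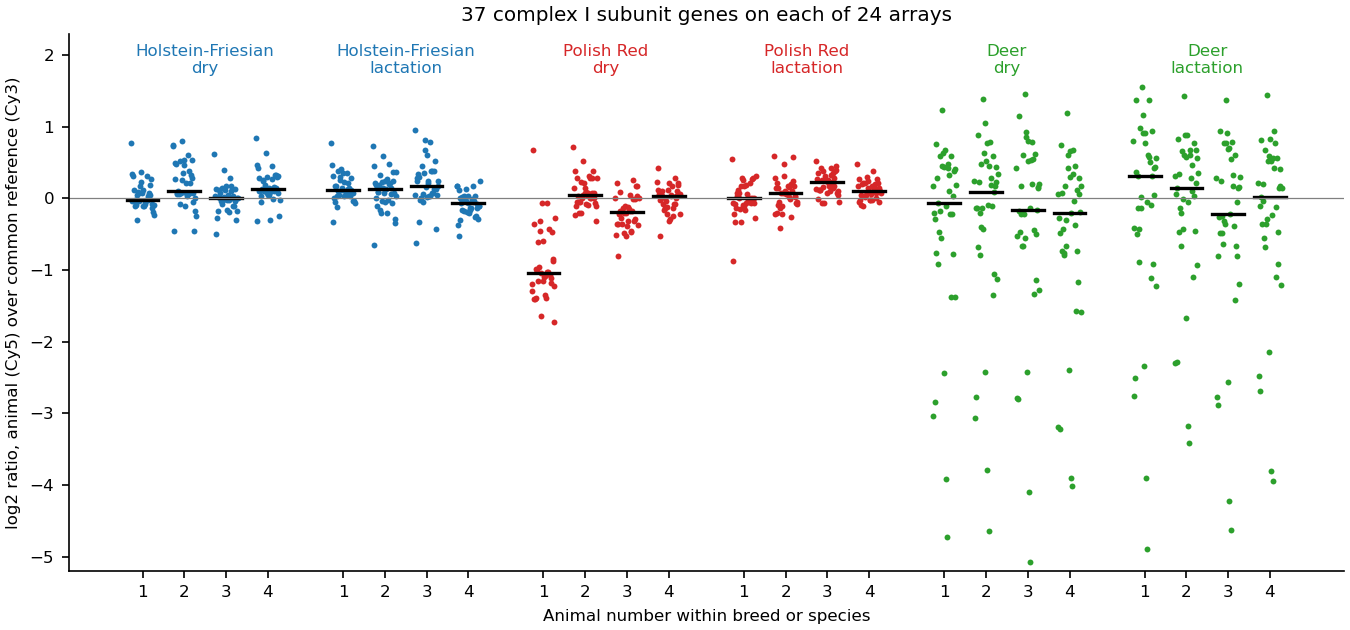
Log2 ratio of the animal's Cy5 signal over the common Cy3 reference (vertical axis) for the 37 complex I subunit genes on each of 24 arrays, grouped by breed or species and state, with 1 point per gene and a black line at the median of the 37 genes. The line of PR dry animal 1 lies at -1.04, the other 23 medians lie between -0.22 and 0.32, and in deer a few genes lie far below the rest in every animal.

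Lists of blood cell markers were read on the same arrays as a check of the tissue. Of 14 neutrophil markers 12 were above background on all 24 arrays, CAMP and MPO being the exceptions, and all 9 T cell markers were above background throughout. The means of the T cell list lay between -0.38 and 0.35 on every array. Of 6 genes of mammary epithelium and milk, CSN1S1, CSN3 and LALBA were above background on at most 8 of the 24 arrays, CSN2 and PAEP on all 24 and KRT18 on 23.

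Several members carry more than 1 probe on nearly the same stretch of transcript, and the letters in which these probes differ are shown first because the deer values below depend on which probe is read. Probes are named by their gene and by the position the array files give along the transcript, all placed on the UMD 3.1 cattle assembly per the file headers, and only 30 bases of each 60-base probe are printed, 5′ to 3′. Capitals mark the bases at which the overlapping probes of one gene differ, and a difference is written as the base of the first probe, its position counted from 1 at the 5′ end of that first probe, and the base of the second. For NDUFB4, an accessory subunit of the membrane arm, the brightest probe lies at chr1:65928522-65928581 on the plus strand and the second at chr1:65928524-65928583. They share 58 bases and differ by A37C and A52G, and the probe at position 391 has the second form of both letters.
NDUFB4 at 375: acatctcAtattaagtctgacaAtgatgtc
NDUFB4 at 377: acatctcCtattaagtctgacaGtgatgtc
For NDUFS3, a core subunit of the Q module, the probes at chr15:78586661-78586720 and chr15:78586669-78586728, both on the plus strand, share 52 bases and differ by A22G and G48T, the brightest probe being the second.
NDUFS3 at 809: taAaaagcaccttacctataattgagtgGc
NDUFS3 at 817: taGaaagcaccttacctataattgagtgTc
For NDUFA4, long counted as a complex I subunit, the probes at chr4:18973500-18973559 and chr4:18973502-18973558 on the minus strand share 59 bases and differ by C18T, C31A and C47T. The brightest probe is the second, and another at position 428 has its letters.
NDUFA4 at 424: CggtggggtttacCctgatgaataaatagC
NDUFA4 at 435: TggtggggtttacActgatgaataaatagT
The brightest NDUFA3 probe is shown for another reason, its placement. It lies at chr5:75520051-75520110 on the plus strand, while the other 3 probes named NDUFA3 lie on chromosome 18. Capitals in its last 30 bases mark the letters AATAAA and a closing run of 6 A.
NDUFA3 at 273: ggccccAATAAAtgcgtgaaaaccAAAAAA
Of the 79 member probes 3 end in 6 A, and 0.999% of all probes on the array do. NDUFA3 is read here through a probe whose placement differs from that of the gene's other probes. Its values below stay in the counts, medians and ranges of the members. The mean log2 Cy5 intensity of this probe was 15.72, against 12.18, 11.5 and 7.16 for the other NDUFA3 probes. Among the brightest probes of the other members the highest was 13.77, for NDUFA13. Whether this probe reads the NDUFA3 transcript was not tested. No annotation of exons for this assembly was used, so exon, intron and untranslated region are not assigned. The placements of the NDUFB1 probe (chr21:57388636-57389639) and of a further NDUFB4 probe (chr1:65926991-65928533) span more than the probe's length.

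In HF cattle the complex I genes showed no common direction between the states. Of the 37 members, 17 were higher and 20 lower at peak lactation, with a median difference of -0.02 against -0.01 over all 33101 probes tested. Over all probes 47.2% were higher. None passed an adjusted p of 0.05 in limma (0.00906% of all probes did), and 1 had an unadjusted p under 0.05, as had 8.11% of all probes. That gene was NDUFV3, a small accessory subunit at the tip of the N module, with values of -0.09, -0.24, 0.00 and -0.02 in the dry period and -0.07, 0.37, 0.24 and 0.25 in lactation for animals 1 to 4. The dry and lactation values overlapped through animal 1 alone, and the difference was 0.29 (SE 0.11, adjusted p = 0.487 in limma, higher in 4 of 4 animals). Next came NDUFS1, the largest core subunit of the N module, and NDUFV2, a core subunit there with an iron-sulfur cluster. NDUFS1 was higher in 4 of 4 animals by a mean of 0.13 (SE 0.11, limma adjusted p = 0.879), and NDUFV2 differed by 0.18. The lowest differences were -0.17 for NDUFS4, an accessory subunit of the N module, -0.16 for NDUFA3 and -0.12 for NDUFS8, a core subunit of the Q module, with NDUFA6 also at -0.12. No member had dry and lactation values that did not overlap, whereas 6.41% of all probes did. The array of PR dry animal 1 enters these p-values too, since all groups share one estimate of the spread. With it left out, 1 member had an unadjusted p under 0.05, beside 10.5% of all probes, and none passed (0.0211% of all probes did).

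The near-zero median in HF came from animals that differed in direction. The median change of the 37 members was 0.08 in animal 1, -0.13 in animal 2, 0.20 in animal 3 and -0.23 in animal 4. In animals 1 and 3, 32 and 33 members were higher at lactation, and in animals 2 and 4 only 10 and 4 were. Both arrays of each HF animal lay on the same slide, so these changes are within slides.

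In PR cattle 36 of 37 members were higher at peak lactation, NDUFA3 being the exception, and the median difference was 0.39 against 0.02 over all 32590 probes tested. Over all probes 56.1% were higher. None of the members passed the adjusted threshold in limma, nor did any probe on the array (0%), while 19 members, 51.4%, had an unadjusted p under 0.05 against 6.04% of all probes. Without the array of PR dry animal 1, 34 members and 48.4% of all probes were higher, the median was 0.12 and 4 members, 10.8%, had an unadjusted p under 0.05 against 2.83% of all probes. Cy5 signals alone after quantile normalization gave a median of 0.73, and 0.13 without that array. On that array the quantile-normalized signals of the members were low in both channels, with a median log2 of 10.08 in Cy5 against 11.72 to 12.52 on the other arrays, and 10.28 in the Cy3 reference against 11.03 to 11.24.

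**Figure D2:**
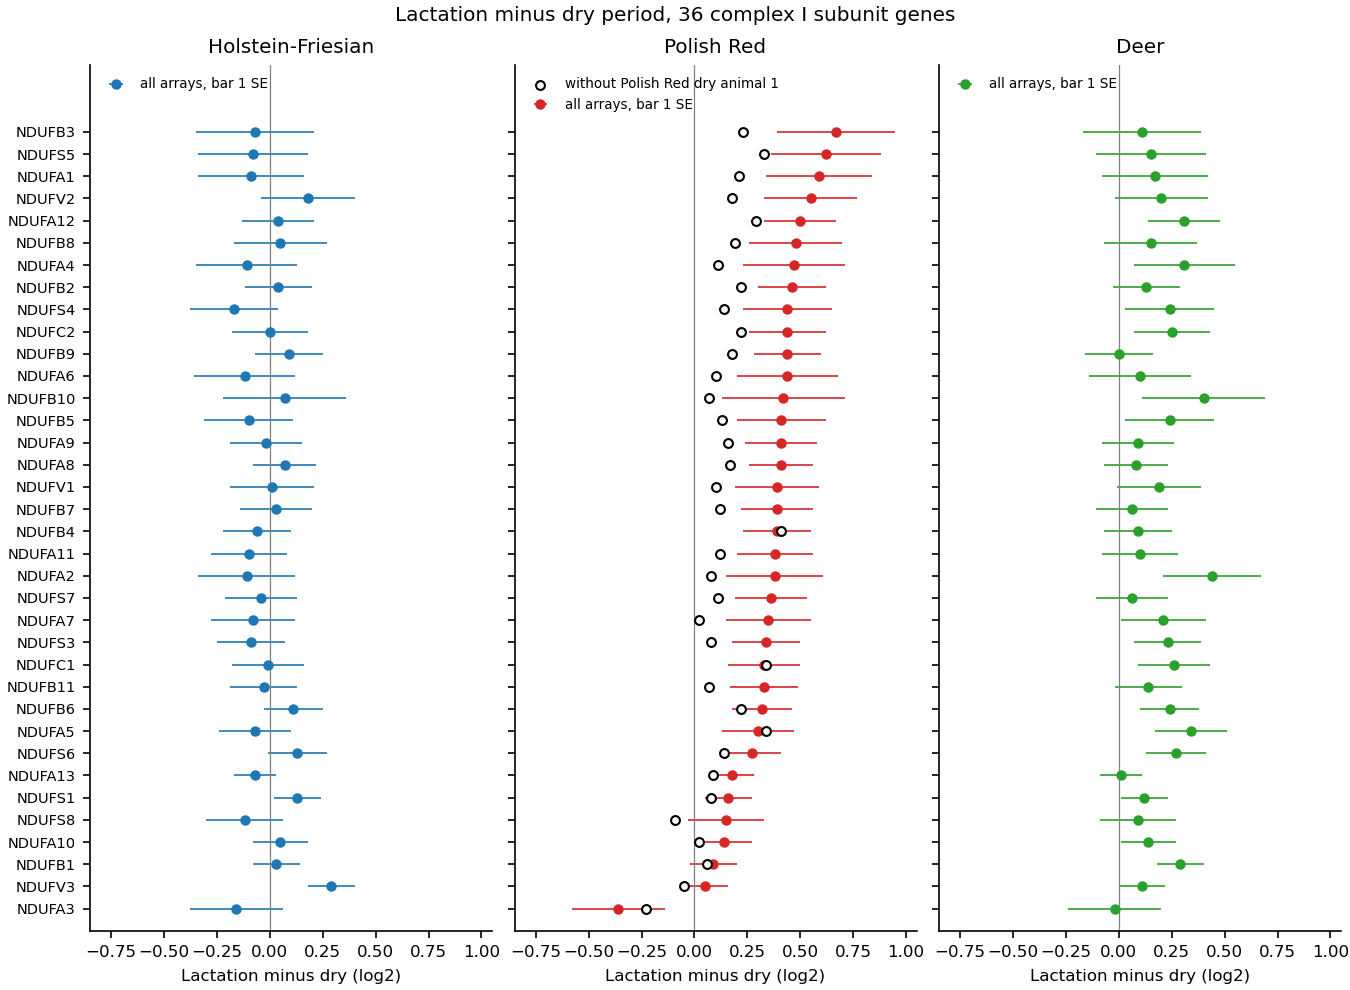
Lactation minus dry difference on the log2 scale (horizontal axis) for 36 of the 37 genes in HF, PR and deer, ordered by the PR value, with bars of 1 standard error and, for PR, open circles for the fit without the array of dry animal 1. The medians over all 37 genes are 0.39 in PR and 0.12 for the open circles, -0.02 in HF and 0.15 in deer.

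The largest PR differences were 0.67 for NDUFB3 and 0.62 for NDUFS5, membrane arm accessory subunits, and 0.59 for NDUFA1, which lies where the arms meet, and without the array of dry animal 1 they were 0.23, 0.33 and 0.21. NDUFB3 had dry values of -1.64, 0.53, -0.10 and -0.12 and lactation values of 0.29, 0.48, 0.26 and 0.30. Outside animal 1 its values overlapped. The smallest difference among genes that were higher was 0.05 for NDUFV3, followed by 0.09 for NDUFB1 (-0.05 and 0.06 without that array).

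In 3 members the 4 lactation values all lay above the 4 dry values, a pattern seen upward in 0.93% of all probes, or 1.74% without that array. They were NDUFB2 and NDUFB9, accessory subunits of the distal membrane arm, and NDUFA8, a twin CX9C protein of the proximal membrane arm. NDUFB2 had dry values of -1.04, 0.05, -0.20 and -0.03 and lactation values of 0.17, 0.07, 0.32 and 0.09. NDUFB9 had dry values of -1.08, 0.05, -0.15 and 0.03 and lactation values of 0.19, 0.17, 0.20 and 0.06. NDUFA8 had dry values of -0.99, 0.04, -0.18 and 0.03 and lactation values of 0.07, 0.14, 0.12 and 0.20. In each the gap between the highest dry and the lowest lactation value was small, and the dry value of animal 1 lay far below the other 3. Their differences were 0.46 (SE 0.16), 0.44 (SE 0.16) and 0.41 (SE 0.15), each with a limma adjusted p of 0.797, and 0.22, 0.18 and 0.17 without that array.

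On their brightest probes the 7 core subunits coded in the nucleus were all higher in PR lactation, with a median of 0.36. Without the array of dry animal 1 it was 0.08, with 6 of 7 higher. Over the probes above background on all arrays, NDUFV1 differences ran from -0.04 to 0.39 and NDUFS8 differences from -0.01 to 0.15. In the N module, NDUFV1, which binds FMN and takes the electrons from NADH, had dry values of -1.22, -0.32, 0.04 and 0.06 and lactation values of -0.06, -0.06, 0.10 and 0.14. NDUFV2 had dry values of -1.73, -0.10, -0.37 and -0.22 and lactation values of -0.27, -0.08, 0.05 and 0.10. NDUFS1 had dry values of -0.42, 0.00, -0.18 and -0.08 and lactation values of -0.05, -0.26, 0.14 and 0.14. All of them overlapped between states, and dry animal 1 was the lowest value of each. In the Q module, NDUFS7, which holds the last iron-sulfur cluster before ubiquinone, had dry values of -0.88, 0.00, 0.18 and 0.19 and lactation values of 0.29, 0.03, 0.46 and 0.13. NDUFS3 had dry values of -1.07, 0.07, -0.01 and -0.08 and lactation values of 0.00, 0.11, 0.17 and 0.01. These also overlapped. NDUFS8 had dry values of -0.85, -0.07, 0.17 and 0.22 against 0.01, 0.02, 0.08 and -0.05, and was lower at lactation without that array, by -0.09.

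Structural groups of the complex were summarised by their medians, with no test between them. Median differences were 0.38 for 10 N module genes, 0.35 for 6 Q module genes, 0.38 for 9 genes of the proximal membrane arm and 0.41 for 11 genes of the distal membrane arm. Without the array of dry animal 1 they were 0.10, 0.09, 0.17 and 0.18. NDUFA4, kept outside these groups, differed by 0.47, or 0.11.

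NDUFA3 went the other way. Its brightest probe read 0.67, -0.23, 0.21 and 0.42 in PR dry animals and -0.88, 0.28, 0.27 and -0.05 in lactation, a difference of -0.36 (SE 0.22, limma adjusted p = 0.81), or -0.23 without that array. The values overlapped, and animal 1 had the highest dry and the lowest lactation value. The other 3 NDUFA3 probes, on chromosome 18, differed by 0.17, -0.06 and -0.02 and did not pass the threshold either.

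By animal, the median change of the 37 PR members was 1.09 in animal 1, -0.02 in animal 2, 0.42 in animal 3 and 0.11 in animal 4. Animals 1 and 3 had 35 members higher at lactation, animal 4 had 29 and animal 2 had 18. The dry and lactation arrays of animals 2 and 3 lay on different slides. Within slides, the lactation minus dry median was 1.09 on the slide that held animal 1. It was 0.27 and 0.13 on the other slides that held both states, each with 29 of 37 members higher. The first of these compared dry animal 3 with lactation animal 2, the second dry animal 4 with lactation animals 3 and 4.

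**Figure D3:**
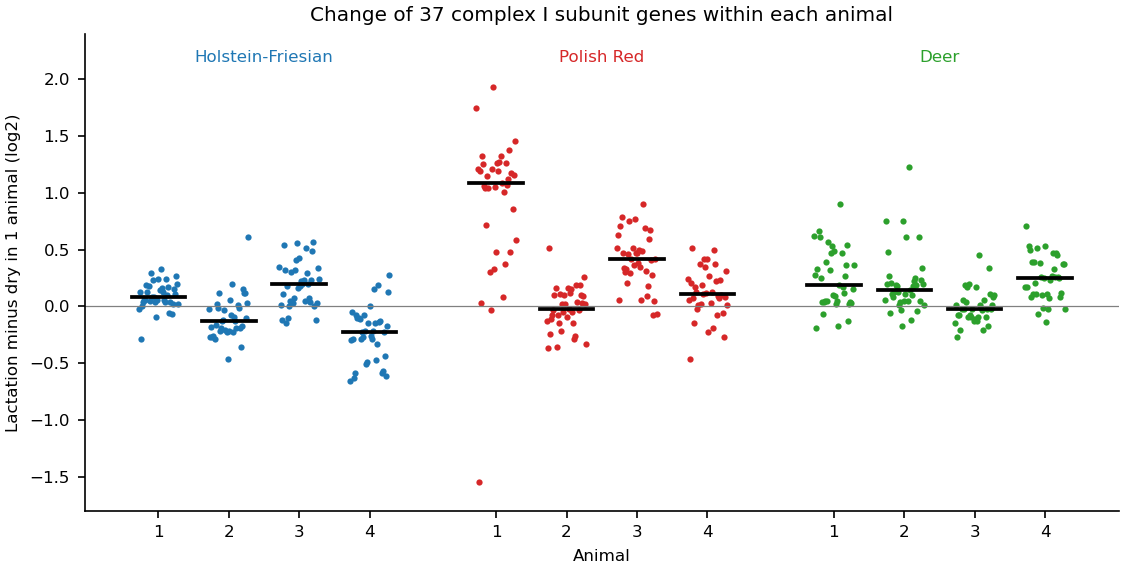
Lactation minus dry change on the log2 scale (vertical axis) within each of the 12 animals, with 1 point per gene for the 37 complex I genes and a black line at their median. PR animal 1 has a median of 1.09, PR animals 2 to 4 have -0.02, 0.42 and 0.11, HF medians run from -0.23 to 0.20 and deer medians from -0.02 to 0.25.

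In deer 35 of 37 members were higher at peak lactation, with a median of 0.15 against 0.01 over the 33389 probes tested, of which 52.4% were higher. None passed the adjusted threshold in limma (0.00599% of all probes did), and 1 had an unadjusted p under 0.05, as had 9.54% of all probes. It was NDUFB1, a small subunit of the distal membrane arm, with dry values of -0.55, -0.43, -0.55 and -0.66 and lactation values of 0.02, -0.43, -0.35 and -0.28. The highest dry and the lowest lactation value, both of animal 2, met at -0.43 after rounding. The difference was 0.29 (SE 0.11, limma adjusted p = 0.45, higher in 4 of 4 animals). With the array of PR dry animal 1 left out, the deer differences stayed the same and the shared estimate of the spread changed. Then 6 members, 16.2%, had an unadjusted p under 0.05, beside 12.6% of all probes. None passed the adjusted threshold, beside 0.00898% of all probes.

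The largest deer differences were 0.44 for NDUFA2, an N module subunit with a thioredoxin fold, 0.40 for NDUFB10, a membrane arm subunit, and 0.34 for NDUFA5 in the Q module. NDUFA2 had dry values of -3.04, -3.06, -2.78 and -3.19 and lactation values of -2.76, -2.30, -2.77 and -2.48. NDUFB10 had dry values of -4.73, -4.64, -5.08 and -4.02 and lactation values of -4.90, -3.41, -4.63 and -3.95. NDUFA2 was higher in every lactation array than in any dry one, whereas NDUFB10 overlapped widely. Both are among the members that read far below cattle in deer, as described further on. The NDUFB10 difference ran from 0.12 without the array of lactation animal 2 to 0.62 without that of animal 1. On the array of lactation animal 2 the standard deviation of all log2 ratios was 0.52. It was 0.66 on that of lactation animal 4 and 0.80 to 0.85 on the other deer arrays. The part of this narrower spread in the differences was not tested. The members lowest in this comparison were NDUFA3 at -0.02, NDUFB9 at 0.00 and NDUFA13 at 0.01. In 4 members the states did not overlap, all higher in lactation, namely NDUFA2, NDUFA12, NDUFB1 and NDUFB11, against 2.31% of all probes.

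On their brightest probes the core subunits were all higher in deer lactation, 7 of 7 with differences from 0.06 for NDUFS7 to 0.23 for NDUFS3 and a median of 0.17. Other probes of NDUFS1 and NDUFS7 differed in sign. Over the probes above background on all arrays, NDUFS1 differences ran from -0.07 to 0.61 and NDUFS7 differences from -0.04 to 0.06. NDUFV1 ran from -0.19 to 0.41 in the dry period and from 0.16 to 0.57 in lactation, and NDUFS1 from 0.29 to 0.55 and from 0.33 to 0.78. Ranges of both overlapped between states. Structural groups had medians of 0.13 to 0.20. By animal the median change was 0.19, 0.14, -0.02 and 0.25 for animals 1 to 4. Animal 3 had 15 members higher and the others 32 or 33. In no deer did the dry and the lactation array lie on the same slide. The slide that held deer of both states carried dry animal 3 and lactation animals 1 and 4, so different animals. There the median was 0.15, with 31 of 37 higher. Each other deer slide held a single state, so state and slide cannot be told apart on them.

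Differences between the breeds' or species' responses were tested in the same model, and no member or other probe passed (0% in both). HF minus PR responses had a median of -0.38, with 35 of 37 members negative, or -0.15 and 32 of 37 without the array of PR dry animal 1, where 44.2% and 50.3% of all probes were positive, and 0 members had an unadjusted p under 0.05 with all arrays and 1 without that one, beside 3.23% and 2.4% of all probes. The most negative were -0.73 for NDUFB3, -0.70 for NDUFS5 and -0.68 for NDUFA1, which became -0.30, -0.41 and -0.30 without that array. The positive ones were 0.24 for NDUFV3 and 0.20 for NDUFA3 (0.34 and 0.07). The smallest p was that of NDUFS4 at -0.61 (95% interval -1.22 to 0.01, limma adjusted p = 0.997), or -0.31 without that array. Deer minus the mean of both cattle breeds had a median of -0.01 with 17 members positive and 0 with an unadjusted p under 0.05, or 0.11, 31 members and 3 without that array. Over all probes 51.7% and 54.7% were positive, and 8.87% and 11.8% had such a p. NDUFA2 at 0.30 and NDUFB9 at -0.27 (0.45 and -0.13 without it) marked the ends of this range, and NDUFB1 at 0.23 had the smallest p (limma adjusted p = 0.635).

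Levels were then compared between the breeds in each state. HF and PR arrays lay on separate slides, except that PR dry animal 2 shared the slide of HF animal 4. Slide and breed can therefore hardly be told apart in the dry period, and at lactation not at all. In the dry period 34 of 37 members were higher in HF than in PR, with a median difference of 0.40 against 0.01 over all 32924 probes tested, of which 51.7% were higher. None passed the adjusted threshold in limma, while 3.17% of all probes did, and 21 members had an unadjusted p under 0.05, 56.8% against 22.4% of all probes. The largest differences were 0.88 for NDUFB3, 0.81 for NDUFA1 and 0.78 for NDUFA2, and the smallest adjusted p was that of NDUFA2 (SE 0.23, limma adjusted p = 0.059). Without the array of PR dry animal 1 these differences were 0.45, 0.43 and 0.47, and the adjusted p of NDUFA2 in limma was 0.154. NDUFA2 read 0.34, 0.73, 0.04 and 0.47 in HF and -1.29, 0.15, -0.51 and 0.12 in PR, so the breeds overlapped, as they did in every member, while 8.89% of all probes did not. The members lower in HF were NDUFA3 at -0.59, NDUFV3 at -0.11 and NDUFS8 at -0.01 (-0.46, -0.21 and -0.25 without that array). NDUFV3 was then lower in HF without overlap, as were 6.09% of all probes.

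The breed difference in the dry period depended on single arrays and on the scaling. Without the array of PR dry animal 1 the median was 0.16 with 30 members higher (48.6% of all probes) and 0 passing (0.982%), 11 with an unadjusted p under 0.05 (18.9%). Without PR dry animal 2 instead, 17 members passed in limma, 16 of them higher in HF, beside 13.7% of all probes. Centring arrays on their median without loess gave 25 members higher in HF at the threshold, beside 19.4% of all probes and a median of 0.15 over all probes, and 0 members when PR dry animal 1 was also left out. On the slide that held HF dry animal 4 and PR dry animal 2, the median difference was 0.08, with 26 of 37 higher in HF.

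At peak lactation 18 members were higher and 19 lower in HF than in PR, with a median of 0.00 and 0 passing in limma (0.0121% of all probes did), and 1 had an unadjusted p under 0.05 (15% did). Over all probes 51.5% were higher. NDUFS1 was that member, with 0.13, 0.22, 0.38 and 0.18 in HF and -0.05, -0.26, 0.14 and 0.14 in PR, a difference of 0.23 (SE 0.11, limma adjusted p = 0.307). The extremes were 0.29 for NDUFA2, 0.28 for NDUFB6 and 0.23 for NDUFS1 and NDUFB1 above, and -0.39 for NDUFA3, -0.29 for NDUFS8 and -0.22 for NDUFS5 below. With the array of PR dry animal 1 left out, 2 members, 5.41%, had an unadjusted p under 0.05, beside 18.8% of all probes. Still 0 members passed in limma, beside 1.68% of all probes.

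Deer differed from cattle in many members, as they did in probes at large. In the dry period 25 of 37 members passed in limma, 13 higher and 12 lower in deer than the mean of both breeds, 67.6% of the members beside 57.4% of all 35175 probes tested, of which 26.7% were called higher and 30.7% lower. At peak lactation 22 passed, 11 each way, 59.5% beside 49.3% of all probes, 22.2% higher and 27.2% lower. Without the array of PR dry animal 1, 27 members passed in the dry period, 12 higher and 15 lower, beside 60% of all probes. In lactation 28 then passed, 12 higher and 16 lower, beside 52.8% of all probes. The dry median of the members was -0.05 with all arrays and -0.14 without that one. The split between higher and lower moved with the scaling: with median centring in place of loess it was 19 higher and 7 lower in the dry period and 15 and 8 in lactation, and the median of the members moved from -0.05 to 0.50 and from -0.04 to 0.38, beside medians of 0.21 and 0.16 over all probes. Deer and cattle arrays lay on separate slides, so slide and species cannot be told apart.

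**Figure D4:**
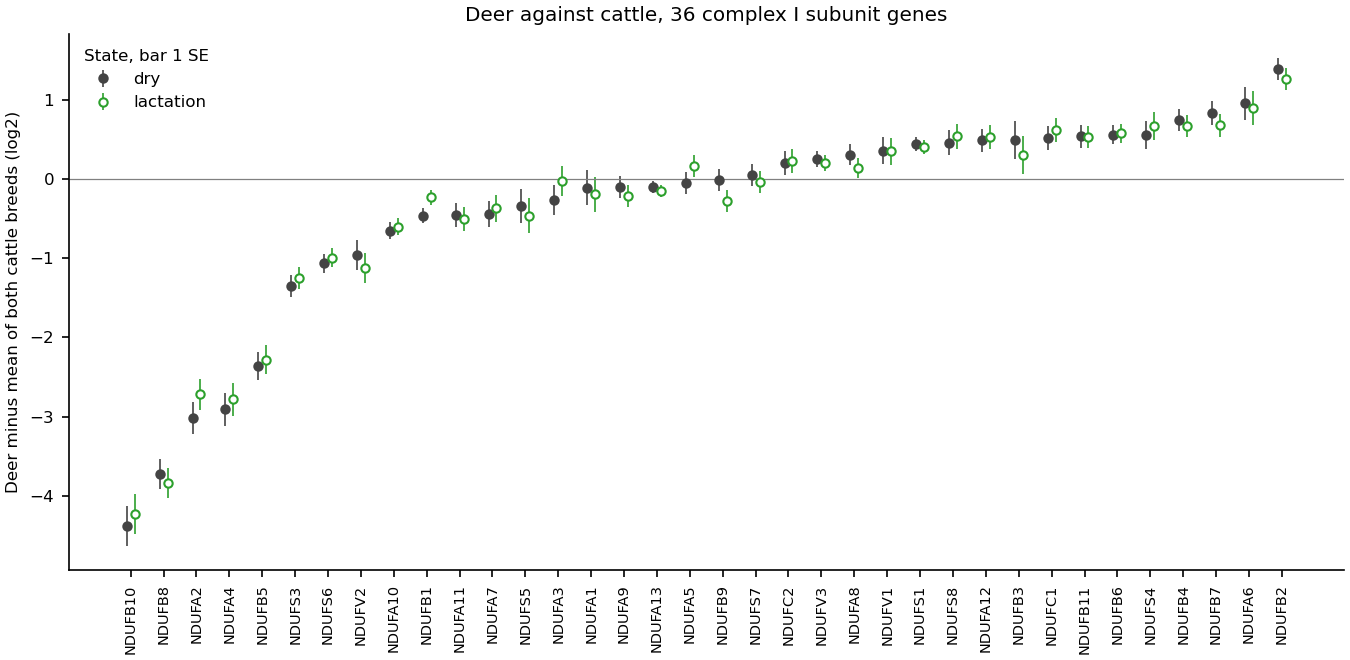
Deer minus the mean of both cattle breeds on the log2 scale (vertical axis) for 36 of the 37 complex I genes in the dry period (filled) and at peak lactation (open), with bars of 1 standard error, ordered by the dry value. NDUFB10, NDUFB8, NDUFA2, NDUFA4 and NDUFB5 lie between -4.38 and -2.28 in both states, while NDUFB2 lies highest at 1.39 and 1.27.

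The differences reached far further down than up. NDUFB10, which has twin disulfide motifs and is needed to build the distal membrane arm, read -4.73, -4.64, -5.08 and -4.02 in dry deer, and between -1.39 and 0.05 on the 8 dry cattle arrays. Its difference was -4.38 (SE 0.25, limma adjusted p = 8.89e-12), 20.8-fold lower, and -4.23 (SE 0.25) in lactation. NDUFB8, a distal membrane arm subunit with a membrane-spanning helix, read -3.92, -3.79, -4.10 and -3.91 in dry deer and differed by -3.72 (SE 0.19, limma adjusted p = 1.37e-12) and -3.84 (SE 0.19). NDUFA2 differed by -3.02 and -2.72, NDUFA4 by -2.91 and -2.78, and NDUFB5 by -2.36 and -2.28. In all 5 every deer array lay below every cattle array of the same state.

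NDUFS3 and NDUFS6, a zinc-binding subunit of the N module, were lower by smaller amounts, -1.35 and -1.06 in the dry period and -1.25 and -0.99 in lactation. NDUFV2 was lower by -0.96 and -1.12, and NDUFA10, a membrane arm subunit of the deoxyribonucleoside kinase family, by -0.65 and -0.60. In each state 7 members were lower in deer by more than 1 log2 unit, 18.9% of the members beside 11.1% of all probes in the dry period and 9.69% in lactation. With median centring or with Cy5 alone NDUFA10 stayed negative and no longer passed, and NDUFV2 no longer passed in lactation with Cy5 alone.

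Above the cattle, NDUFB2 read 1.24, 1.39, 1.46 and 1.19 in dry deer and differed by 1.39 (SE 0.14, limma adjusted p = 2.05e-08) and by 1.27 in lactation (SE 0.14). It was the sole member higher by more than 1 log2 unit. NDUFA6, an LYR-motif subunit that binds the acyl carrier protein NDUFAB1, differed by 0.96 and 0.90, NDUFB7 by 0.84 and 0.68, and NDUFB4 by 0.75 and 0.67. Of the core subunits, NDUFS1 was higher by 0.44 and 0.41 and NDUFS8 by 0.46 and 0.54. NDUFV1 at 0.36 and 0.35 and NDUFS7 at 0.05 and -0.04 did not pass with all arrays. When PR dry animal 1 was left out NDUFV1 passed in lactation, and the dry values became 0.22 for NDUFV1 and -0.07 for NDUFS7.

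In 14 members dry deer and dry cattle did not overlap, 6 higher and 8 lower in deer, beside 15.4% and 19.5% of all probes. Without the array of PR dry animal 1 it was 6 higher and 12 lower, beside 17.8% and 24.3%. In lactation it was 8 higher and 11 lower, beside 12.6% and 16.6%. The largest of these were NDUFB10, NDUFB8 and NDUFA2 in the dry period and NDUFB10, NDUFB8 and NDUFA4 in lactation.

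Several genes gave opposite answers from different probes. Of 23 genes with at least 2 probes above background on all arrays, 8 had probes whose deer minus cattle values lay more than 1 log2 unit apart in each state. Between the states within PR no gene had probes that far apart, and the largest gap there was 0.53, for NDUFA3. The sign of the lactation minus dry difference did differ between such probes, in 6 of the 23 genes in HF, 5 in PR and 5 in deer. In HF the differences ran from -0.12 to 0.16 for NDUFA6 and from -0.09 to 0.14 for NDUFS1. The widest deer gap was that of NDUFB4, 5.13 in the dry period and 4.53 in lactation.

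**Figure D5:**
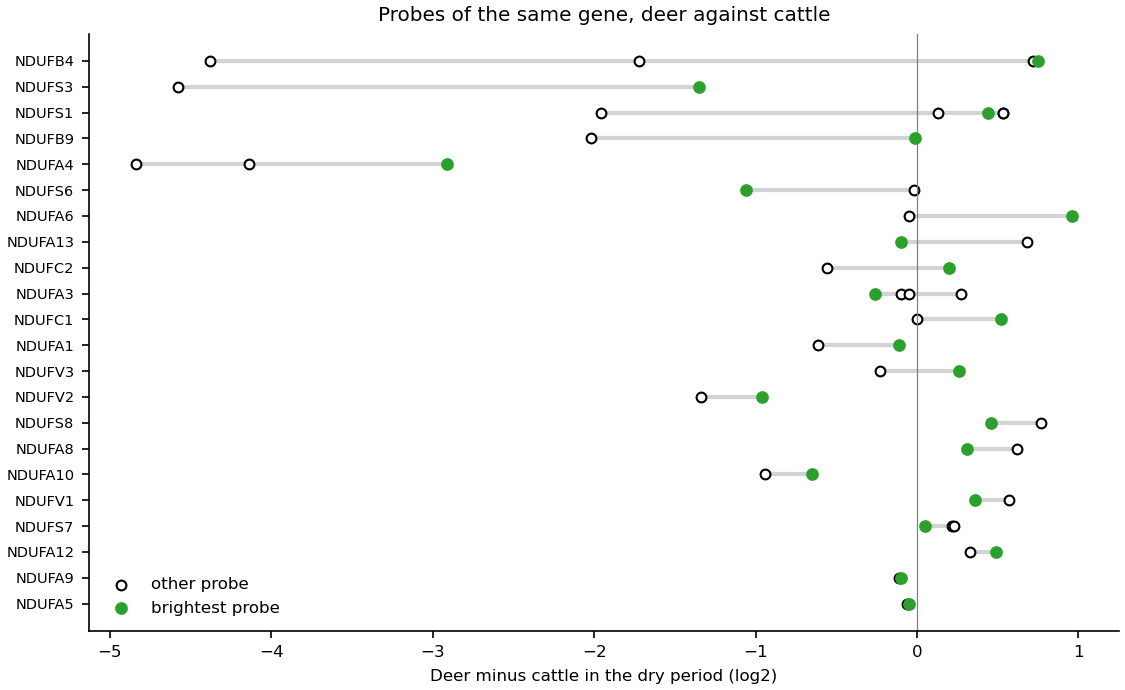
Deer minus cattle difference in the dry period on the log2 scale (horizontal axis) for every probe of 22 of the 23 genes with at least 2 probes above background on all 24 arrays, with the brightest probe of each gene filled and grey lines joining probes of one gene. The NDUFB4 probes run from -4.38 to 0.75 and the NDUFS3 probes from -4.58 to -1.35.

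The NDUFB4 probes printed above make this plain. The NDUFB4 probe at position 650 was above background on 7 arrays and was not tested. The brightest, at position 375, read 0.75 higher in dry deer (SE 0.14, limma adjusted p = 0.000102), and the one at position 327 read 0.72 higher. The probe at 377, which overlaps the first in all but 2 bases at each end and differs by A37C and A52G, read -1.72 (SE 0.17, limma adjusted p = 2.12e-08). The probe at 391, with those same letters, read -4.38 (SE 0.30). Between the states in PR the overlapping probes at 375, 377 and 391 differed by 0.39, 0.36 and 0.64, all in the same direction.

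The NDUFS3 probe at 809 read -4.58 (SE 0.20) and the overlapping one at 817 read -1.35 (SE 0.14), so both put deer below cattle, by amounts that differ more than their errors. For NDUFA4 the probe at 424 read -4.84 (SE 0.26), those at 428 and 435, whose shared letters do not differ, read -4.14 (SE 0.23) and -2.91 (SE 0.21), and a probe at 490 that was above background on 18 arrays read -1.62 (SE 0.18). All 4 NDUFA4 probes were negative. The PR values of the 3 overlapping NDUFA4 probes were 0.48, 0.50 and 0.47.

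Other genes turned on 1 probe. NDUFS1 had 4 probes at 0.13 to 0.53 and another, at position 2595, at -1.96 (SE 0.21). NDUFB9 read -0.01 at position 604 and -2.02 at position 690. The sign differed between probes above background on all arrays in 7 genes in the dry period, namely NDUFA3, NDUFA6, NDUFA13, NDUFB4, NDUFC2, NDUFS1 and NDUFV3. NDUFB2, the highest member, has a second probe at position 829 that read -1.89 (SE 0.19) and was above background on 18 arrays. With the mean of all probes per gene, NDUFB2 turned to -0.25 in the dry period and -0.15 in lactation. NDUFB10, NDUFB8, NDUFA2 and NDUFB5 have 1 probe each, so nothing on the array bears on how far their deer values depend on the probe.

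Probes were also searched, on the printed strand alone, for AATAAA, the letters of the main polyadenylation signal. They occur in 15 of the 79 member probes, 19%, and in 9.35% of all probes. Member probes with the motif had a median deer minus cattle difference of -1.06 in the dry period (15 probes) against -0.05 for the 61 others tested, and 53.3% against 16.4% were lower by more than 1. The 15 are not independent. They include the overlapping NDUFA4 probes at 424, 428 and 435 and the overlapping NDUFS3 probes at 809 and 817, all lower by more than 1. Over all other probes of the array the medians were -0.09 with the motif and 0.01 without, and 18.8% against 10.3% were lower by more than 1. The match is a description of the printed letters, and the base composition and position that come with it were not tested. Among the brightest probes, 11 hold the motif. Those of NDUFA4, NDUFB8, NDUFS3 and NDUFS6 read lower in deer by more than 1 log2 unit in the dry period, those of NDUFA3, NDUFA13, NDUFB7, NDUFB9, NDUFS5, NDUFS7 and NDUFS8 hold it too and did not, and those of NDUFB10, NDUFA2 and NDUFB5 read low without it.

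The genes around complex I were read from lists. The respiratory complexes II to V, 37 genes matched, gave values close to those of complex I: 37 of 37 were higher in PR lactation with a median of 0.37, or 28 of 37 and 0.12 without the array of dry animal 1, where their mean stood at -1.14. In deer 35 of 37 were higher, with a median of 0.14, and in HF 22 of 37, with a median of 0.03. No gene of the list passed in limma in any state comparison. UQCRH and UQCRB of complex III had the largest PR differences, 0.78 and 0.77 (0.23 and 0.34 without that array), and COX4I1 and ATP5MC2 the smallest, 0.08 and 0.15 (each -0.04 without it). In deer ATP5PF of the ATP synthase stood at 0.79 and ATP5F1E at -0.57.

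Of the subunits of complex I coded in mitochondrial DNA, 6 were read, ND1, ND2, ND4, ND4L, ND5 and ND6. In HF all 6 were lower at lactation, with a median of -0.56 beside -0.02 for the nuclear members, and none passed in limma. The lowest were ND5 at -0.65 (SE 0.24, limma adjusted p = 0.446) and ND6 at -0.62. Mean values of these genes per array ran from 0.04 to 0.55 in dry HF and from -0.76 to -0.02 in lactation, so these means did not overlap. Of single probes, 3.09% were lower without overlap in HF, a share that is not a measure for a mean of 6 genes. In PR all 6 were also lower, with a median of -0.06, or -0.28 without the array of dry animal 1. In deer 4 of 6 were higher, with a median of 0.27. Deer read far below cattle in all 6 of these genes, which passed in both states. The medians were -4.06 in the dry period (-4.17 without the array of PR dry animal 1) and -3.41 in lactation.

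Assembly factors, proteins that put complex I together and do not stay in it, gave 20 genes. At lactation 6 of 20 were higher in HF with a median of -0.09, and 15 of the 17 tested in deer with 0.16. In PR 13 of 20 were higher, or 12 of 20 without the array of dry animal 1, with a median of 0.06 both ways. None passed in limma. Their mean on that array was -0.17, against -1.14 for complexes II to V. FOXRED1 at 0.34 and ACAD9 at -0.22 were the ends in HF, and DMAC1 was the highest in PR at 0.54 (0.35 without that array). Regulators of mitochondrial biogenesis had medians of -0.03 in HF, 0.13 in PR (0.02 without that array) and 0.03 in deer, with none passing, ESRRA highest in PR at 0.38 (0.09) and POLG lowest in HF at -0.24. Other NADH and quinone enzymes had medians of 0.03, 0.17 (0.09) and 0.17, also with none passing, with GPD2 highest in HF at 0.45 and ETFB highest in PR at 0.49 (0.19).

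Cell marker lists were compared between the states on the same arrays. In HF, neutrophil markers were higher at lactation, 11 of 13 with a median of 1.06, and monocyte markers 10 of 10 with a median of 0.61, while 7 of 7 B cell and 9 of 9 NK cell markers were lower, each with a median of -0.40. In PR, neutrophil and monocyte medians were 0.38 and 0.46 (0.32 and 0.28 without dry animal 1). There 10 of 13 and 8 of 10 were higher, or 9 of 13 and 9 of 10 without dry animal 1. In deer the neutrophil and monocyte medians were -0.28 and 0.01. The B cell and NK cell medians were -0.05 and -0.02 in PR (-0.17 and -0.06 without dry animal 1) and -0.04 and 0.00 in deer. T cell markers were lower in HF in 8 of 9, with a median of -0.13. In PR 6 of 9 were higher, with a median of 0.05, or 0 of 9 and -0.11 without dry animal 1. The T cell median in deer was -0.03. Erythroid medians were 0.15 in HF, -0.10 in PR (-0.13 without dry animal 1) and -0.08 in deer. Platelet medians were -0.09, -0.07 (-0.15) and -0.14. None of these markers passed in limma in a state comparison. Their part in the complex I values was not tested, and in a bulk sample fewer cells of a type and less RNA per cell cannot be told apart.

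An analysis of variance with Tukey comparison in place of limma's test called 0 members between the states in HF, PR and deer, beside 1.09%, 0.402% and 1.1% of all probes. It called 0 between the breeds at lactation, beside 2.93%, and 2 of 37 in the dry period, beside 5.36%. The authors' deposited tables list the probes they selected as differing between the states. Of the 43653 probes on the array, they list 437 in HF, 158 in PR and 576 in deer. None of the 79 complex I probes is in any of the 3 lists. With lists this short few of any 79 probes would be in them, so the absence says little about complex I.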

How the data were processed

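The 24 files hold Cy5 and Cy3 spot intensities and their log10 ratio, as deposited by the authors; per the file headers they came from Agilent Feature Extraction 10.10.1.1, while the submitters' processing notes name 10.7.3.1. The intensities were background-corrected (normexp, offset 50) and loess-normalized within arrays in limma 3.58.1 (R 4.3.3), control and outlier-flagged spots at weight 0, and expressed as log2 of Cy5 over Cy3, the direction the labels give. The log10 ratio deposited by the authors served as an alternative. One model of 6 group means over 24 arrays was fitted to all probes. In each comparison the probes tested were those whose Cy5 was well above background on at least 3 arrays of any group compared. Adjusted p-values are Benjamini-Hochberg over all probes tested, at 0.05, two-sided, and the procedure was tested on simulated data.

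The members and lists were chosen with earlier results of these data known. One member, counted in the totals, is not reported here by name. Values are given for the other nuclear core subunits, for the called members (the 10 with the smallest p) or else the 3 most positive and 3 most negative, for the 3 largest without overlap, for genes whose probes differ in sign, and for the 2 extremes at each end of a related list. Other named members were chosen after their values were seen. The design text says that the same animals were bled in both states, so replicate numbers pair the arrays; the deviations of an animal's arrays correlated above 0.1 in every HF animal and every deer but in 2 of the 4 PR animals. Alternatives covered background correction, scaling, Cy5 alone, probe choice, array position, slide, the replicate block and each array left out. The number of arrays limits the precision.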

Additional observations from a re-analysis of the deposited data

Results flagged for a closer look

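In 9 of 222 sets of 4 arrays, 1 in each group for every member reported by name and for the members' median, 1 array lay far from the other 3, by a gap that passed Dixon's critical value for 4 values. Chance flags about 1 in 20 such groups. On the array of PR dry animal 1, 3 genes were far below the others: NDUFV2 at -1.73 (others -0.37 to -0.10), NDUFB10 at -1.39 (others -0.09 to 0.05) and NDUFS3 at -1.07 (others -0.08 to 0.07). Low in deer were NDUFA4 in dry animal 4 at -3.22 (others -2.84 to -2.77), NDUFS4 in the same array at 0.12 (others 0.59 to 0.62) and NDUFS3 in lactation animal 3 at -1.42 (others -1.11 to -1.10). High in deer were NDUFA1 in lactation animal 1 at 0.80 (others 0.22 to 0.31) and NDUFV2 in lactation animal 2 at -0.93 (others -1.22 to -1.19). In cattle, NDUFB5 was high in HF dry animal 2 at 0.54 (others 0.00 to 0.08). No member reported by name had every animal of one breed or species moving one way between the states and every animal of another moving the opposite way.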

How the results depend on the processing

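The count of members called between the breeds in the dry period, 0, moved to 25 with median centring (19.4% of all probes), 2 with array position as a factor (4.47%), 2 with Tukey comparison (5.36%), and 0 to 17 when 1 array was left out (13.7% at 17, without PR dry animal 2). Median centring moved the member median to 0.26 for HF minus PR at lactation and to 0.50 (dry) and 0.38 (lactation) for deer minus cattle; with PR dry animal 1 also left out, alternatives chosen after seeing the data, these were 0.26, 0.39 and 0.38. Cy5 alone moved the response differences to -0.76 (HF minus PR) and -0.28 (deer minus cattle), and array position moved the HF state median to -0.20. Leaving out 1 array gave medians of -0.06 to 0.05 in HF, 0.12 to 0.51 in PR and 0.12 to 0.22 in deer. With the replicate block the medians were -0.02, 0.39 and 0.15 and 0 members were called, so the pairing changed no call between states. The cause of these moves was not tested.

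Named genes that changed sign did so near 0 in most cases. Between states, NDUFA13 in deer turned to -0.11 (median centring), -0.32 (Cy5 alone) and -0.04 (offset 1), NDUFB9 in deer to 0.02 (Cy5 alone) and 0.25 (mean of probes), NDUFB1 in PR to -0.08 (Cy5 alone) and -0.03 (position), NDUFV3 in PR to 0.00 (deposited ratio) and -0.09 (position), NDUFV2 in HF to -0.13, NDUFA3 in HF to 0.04 and in deer to 0.03 (position), and NDUFA6 in HF to 0.02 (mean of probes). Between responses, NDUFA3 turned to -0.18 (median centring) and -0.07 (mean of probes) and NDUFS1 to 0.06 (deposited ratio) for HF minus PR, and NDUFA2 to -0.22 (Cy5 alone) and NDUFB3 to 0.03 (position) for deer minus cattle. Between breeds in the dry period, NDUFS8 turned to 0.39 (median centring), 0.10 (Cy5 alone), 0.03 (position) and 0.22 (without HF animals 2 and 3), NDUFV3 to 0.26 (median centring) and NDUFA3 to 0.02 (mean of probes); at lactation NDUFS5 turned to 0.04 (median centring). NDUFB2 in deer minus cattle turned to -0.25 (dry) and -0.15 (lactation) with the mean of probes. With 1 array left out, sign changes lay within -0.06 to 0.06 (NDUFA13), -0.15 to 0.14 (NDUFA3) and -0.03 to 0.03 (NDUFB9) in deer, -0.20 to 0.01 (NDUFA6 in HF), -0.05 to 0.13 (NDUFV3 in PR), -0.06 to 0.37 (NDUFA3) and -0.12 to 0.05 (NDUFS1) for HF minus PR responses, -0.33 to 0.03 (NDUFB3) and -0.25 to 0.02 (NDUFV2) for deer minus cattle responses, and -0.25 to 0.10 (NDUFS8 between breeds, dry).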
